A study of Rattus norvegicus with 30 samples.

Results

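The genes described here encode the clotting factors that the liver secretes into plasma and their closest counterparts: F2 (prothrombin), F5 (factor V), F7 (factor VII), F9 (factor IX), F10 (factor X), F12 (factor XII), Serpinc1 (antithrombin), Proc (protein C) and Plg (plasminogen). They were chosen by name, as the probe sets that the platform's gene table assigns to these 9 genes. A probe set was found for 8 of the 9, 1 for each gene. F7 had no probe set in that table and was not analysed here. All 8 passed the filter on low signals, so they stand among the 10528 genes tested.

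Clotting is a chain of protease activations. Tissue factor with factor VII, or the contact system through factor XII, leads to active factor IX and factor X. Factor X with its cofactor factor V then turns prothrombin into thrombin, which cuts fibrinogen to fibrin. Antithrombin and protein C hold the chain back, protein C by cutting factor V once both are active. Plasminogen is the precursor of plasmin, the protease that dissolves fibrin. Hepatocytes are the main source of nearly all of these proteins, and prothrombin, protein C and factors VII, IX and X need vitamin K before they can bind membranes.

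The cells were purchased, frozen hepatocytes of male Sprague Dawley rats, thawed, plated on collagen and exposed from day 3 of culture. Of 6 groups, 3 were collected at 24 h: vehicle (1% DMSO), 250 µM dioctyl phthalate and 1000 µM dioctyl phthalate. The same 3 conditions were collected at 48 h. Every group held 5 wells with 1 Affymetrix array each, 30 arrays in all, and each exposure was compared with the vehicle of its own time. Dioctyl phthalate is a plasticiser and a member of the peroxisome proliferators, compounds that switch on fat-burning genes in rodent liver. How many animals gave the cells is not stated in the sources used here, so p-values measure the spread between wells only, and plated hepatocytes have lost the flow and neighbouring cells of the liver. The comparisons ask, per the series title and labels, what this compound does to these cells at each dose and time.

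Ehhadh, an enzyme of peroxisomal fat oxidation that such compounds are known to raise in rodent liver, rose by 3.97, 3.83, 3.66 and 3.52 on the log2 scale in the comparisons of 250 and 1000 µM at 24 h and of 250 and 1000 µM at 48 h (limma adjusted p = 8.8e-20 or less in each). All 13 hepatocyte markers with a probe set passed the filter on low signals. Albumin (Alb), the most abundant secreted liver protein, had log2 differences from vehicle of -0.12 to 0.10 that did not pass the test. Of the 13, 4, 4, 3 and 4 fell in these 4 comparisons and 1 rose in each, where 19.3, 19.5, 41.2 and 29.7% of all genes changed. Tat, Tdo2 and Ass1, enzymes of amino acid breakdown and the urea cycle, fell in all 4 (-0.61 to -1.18), Otc at 24 h and Serpina1 at 1000 µM and 48 h, and the rise was Fabp1, a fatty acid binding protein (1.58 to 2.64). Markers of other cell types gave part signals: 6 of 10 for stellate cells, 6 of 9 for Kupffer cells, 2 of 7 for liver endothelium, 1 of 5 for bile duct and 2 of 4 for platelets and their precursors passed the filter. None read 0 on any array. Lrat and Pdgfrb of stellate cells, Stab1 and Stab2 of endothelium, Krt7 of bile duct and Gp9 of platelets stayed under it on average. Others of the same lists read far above its limit of 7.88 on the log2 scale. Cd14 (13.78) and Lyz2 (12.88) of Kupffer cells, Epcam of bile duct (13.47) and Vim of stellate cells (12.50) were among them. RNA of whole wells cannot tell fewer cells of a type from less RNA per cell.

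Some array features touch the results below. The first vehicle array at 24 h (replicate 1) was the lowest of its group for all 8 genes, by 0.14 (F5) to 0.63 (F10) on the log2 scale against the mean of the other 4, although its median over all genes stood 0.06 above theirs. The 500 genes of highest signal stood a median 0.18 below on that array, and 5 of the 8 genes (F2, F9, F10, Serpinc1 and Plg) are among them. Replicate 1 at 1000 µM and 24 h stood a median 0.17 below for those 500 genes, and was lowest of its group for 5 of the 8. Vehicle replicate 1 at 48 h was highest of its group for 7 of the 8. At 48 h, 4 of the 5 vehicle arrays had a beta-actin 3'/5' log2 ratio, which is higher where RNA is shortened, above the highest 24 h vehicle array (1.27), reaching 2.44. The remaining vehicle array read 1.04, and exposed arrays at 48 h read 0.98 to 1.51. Calls lost without the first vehicle array at 24 h, or without the 4 vehicle arrays of raised ratio, are named beside the results. The calls of Serpind1, listed with the anticoagulants, and Ppara, a transcription factor, at 1000 µM and 48 h were also lost without those 4. A fit with 1 vehicle array left has a larger standard error, for F10 at 250 µM and 48 h 0.13 against 0.08. Whether the ratio or the fewer arrays cost a call was not tested. Where arrays were weighted in the fit, the array left had the lowest weight of the 30 (0.32).

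**Figure D1:**
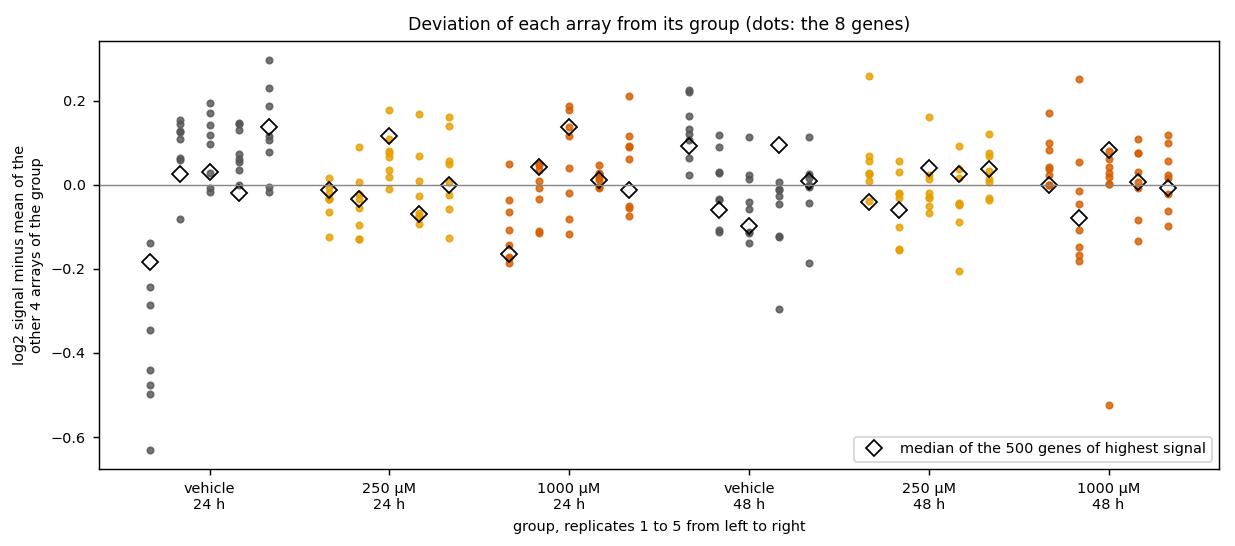
Deviation of each array from the mean of the other 4 arrays of its group, on the log2 scale (y axis), for the 8 genes (dots) and as the median of the 500 genes of highest signal (diamonds), with arrays grouped by condition and time (x axis). All 8 dots of the first vehicle array at 24 h lie below 0, from -0.63 to -0.14.

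The stretches of genome that precede these genes are shown first, for F5 and Plg because their RNA fell with exposure, and for F2 and F10 because their signals moved most alike. Each is the 250 bases up to the base before the annotated start, from RefSeq on the GRCr8 assembly, written 5' to 3' on the gene's strand: F5 at chr13:79046407-79046656 (plus strand), Plg at chr1:50915407-50915656 (minus strand), F2 at chr3:98065247-98065496 (minus strand) and F10 at chr16:83190281-83190530 (minus strand). Capitals mark matches to the motifs named after the sequences.
F5: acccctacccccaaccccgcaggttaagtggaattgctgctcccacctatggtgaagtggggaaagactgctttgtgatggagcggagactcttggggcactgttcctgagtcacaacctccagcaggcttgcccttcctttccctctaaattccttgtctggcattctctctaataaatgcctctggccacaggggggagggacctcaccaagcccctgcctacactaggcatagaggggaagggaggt
Plg: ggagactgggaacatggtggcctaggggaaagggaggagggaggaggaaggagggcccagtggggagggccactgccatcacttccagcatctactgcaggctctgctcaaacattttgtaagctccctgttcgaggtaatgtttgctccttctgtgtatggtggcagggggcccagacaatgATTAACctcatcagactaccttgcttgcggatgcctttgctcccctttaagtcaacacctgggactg
F2: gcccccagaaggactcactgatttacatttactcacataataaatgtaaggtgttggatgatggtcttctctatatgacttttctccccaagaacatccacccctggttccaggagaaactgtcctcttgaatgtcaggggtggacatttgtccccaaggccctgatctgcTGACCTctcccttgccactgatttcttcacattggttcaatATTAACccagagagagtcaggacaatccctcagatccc
F10: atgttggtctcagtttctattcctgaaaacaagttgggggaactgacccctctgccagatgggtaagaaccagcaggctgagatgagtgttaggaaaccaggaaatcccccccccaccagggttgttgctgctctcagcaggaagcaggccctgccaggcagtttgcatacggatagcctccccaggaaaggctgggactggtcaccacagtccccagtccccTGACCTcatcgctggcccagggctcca

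Windows of this kind were found for all 9 genes and searched on both strands for 5 short motifs of liver transcription factors. A short HNF1 motif, GTTAAT, was present before Plg, F2 and Proc (each time as ATTAAC on the gene's strand), that is in 3 of 9 windows, against 6.45% of the 33469 RefSeq windows of the same length. In F2 and Proc it began at the same distance, 38 bases before the start, and in Plg 67 bases before it. The nuclear receptor motif AGGTCA (in F2 and F10 as TGACCT) stood before F2, F7, F9, F10 and Serpinc1 (5 of 9, against 14.1%), and its direct repeat with 1 base between, AGGTCANAGGTCA, before none of the 9 (0.0508% of all windows). The HNF4 motif TGNACTTTG was found before F9 alone (1.06% of all), and the C/EBP motif TTGCNNAA before F9 and Serpinc1 (9.22% of all). AGGTCA lies within its own repeat. The windows of F5 and F12 held none of the 5. A match is a string of letters, not a site shown to be used. On the chromosomes F10 lies between Proz and F7 on chromosome 16, and F5 and Serpinc1 are both on chromosome 13 but not neighbours.

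After 24 h at 250 µM, F5 and Proc fell, and the 6 other genes did not pass the test. At 1000 µM the same pair fell, and Plg with them. After 48 h, F5, Proc and Plg were lower at both doses, F12 was lower at 250 µM, and F10 was higher at 250 µM. F5 showed the largest fall in each of the 4 comparisons, to 56.9 to 67.5% of the vehicle signal. F2, F9 and Serpinc1 passed the test in none of them in the main fit.

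In numbers, 0 of 8 rose and 2 fell at 250 µM and 24 h, where 19.3% of all tested genes changed (8.31% rose and 11% fell). At 1000 µM and 24 h 0 rose and 3 fell, against 19.5% changed (8.28% rose and 11.2% fell). At 250 µM and 48 h 1 rose and 4 fell, against 41.2% changed (15.2% rose and 26% fell). At 1000 µM and 48 h 0 rose and 3 fell, against 29.7% changed (11.5% rose and 18.3% fell). The median log2 difference of the 8 genes was -0.10, -0.12, -0.16 and -0.16 in these comparisons, and that of all genes -0.03, -0.03, -0.07 and -0.04. Centring the arrays on their medians moved the share of rises among all calls at 1000 µM and 24 h from 42.5 to 52.8%.

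**Figure D2:**
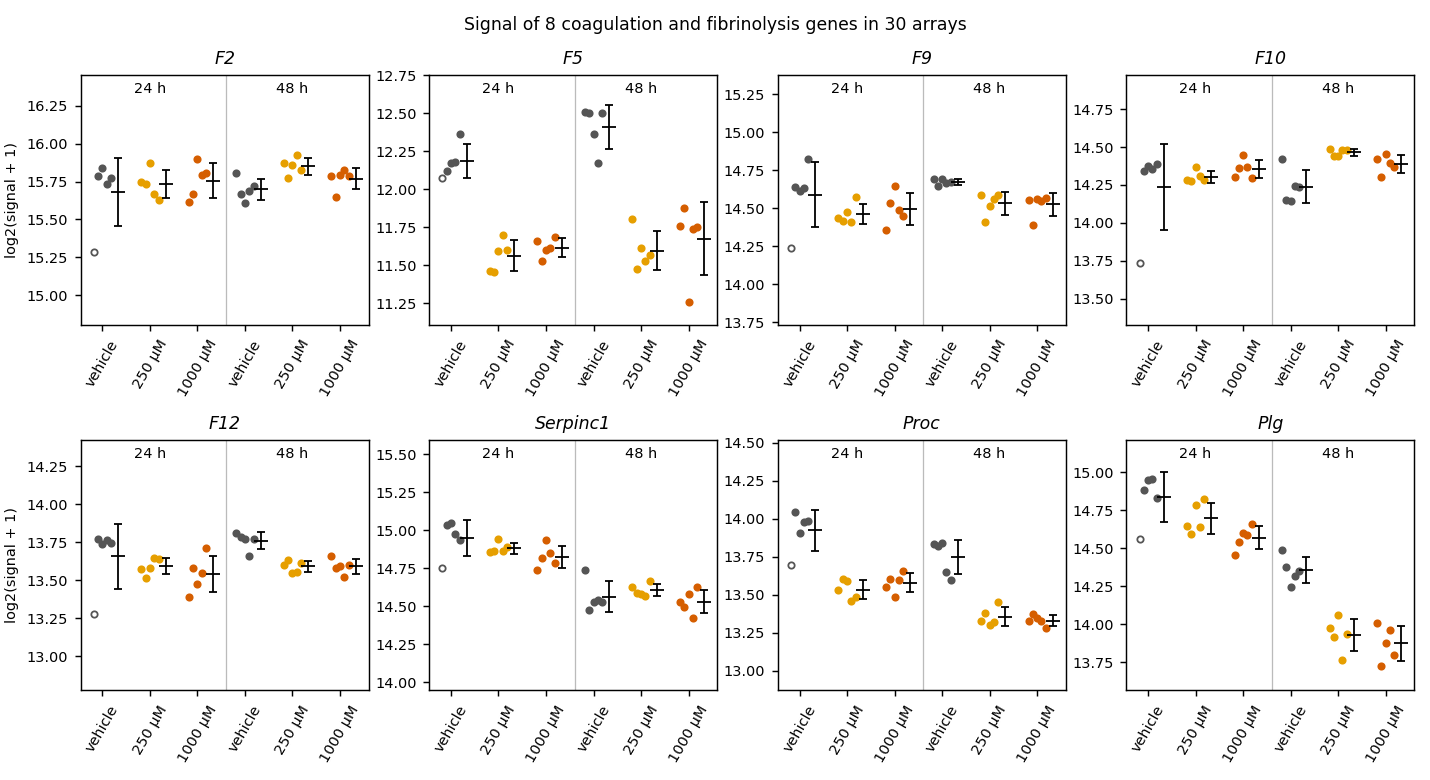
Log2 signal of the 8 genes on each of the 30 arrays (y axis), by condition and time (x axis), with the group mean and SD beside the 5 points of each group (open point: the first vehicle array at 24 h). Each panel spans the same range of log2 units, and levels are not comparable between panels. F5 and Proc show exposed points below all vehicle points at both times.

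F5 encodes factor V, the cofactor with which factor X activates prothrombin. At 24 h its log2 signals were 12.07, 12.12, 12.18, 12.18 and 12.37 in vehicle, 11.46, 11.46, 11.59, 11.60 and 11.70 at 250 µM, and 11.52, 11.60, 11.61, 11.66 and 11.69 at 1000 µM. No exposed array reached a vehicle array, a separation that 14.7% of all genes showed at 250 µM and 14.1% at 1000 µM. The fall was -0.62 ± 0.09 at 250 µM (standard error, limma adjusted p = 1.3e-06) and -0.57 ± 0.09 at 1000 µM (limma adjusted p = 6.8e-06). At 48 h the vehicle arrays read 12.17, 12.36, 12.50, 12.50 and 12.51, those at 250 µM 11.47, 11.52, 11.57, 11.61 and 11.80, and those at 1000 µM 11.26, 11.73, 11.75, 11.75 and 11.88. The groups were again apart, and the mean signal was 5458 ± 526 (SD, n = 5) in vehicle, 3103 ± 282 at 250 µM and 3303 ± 500 at 1000 µM. The fall was -0.81 ± 0.09 at 250 µM (limma adjusted p = 3.9e-09) and -0.73 ± 0.09 at 1000 µM (limma adjusted p = 4.6e-08). Against the single vehicle array of low actin ratio, which was also the lowest of its group for F5, the falls were -0.58 and -0.50 (limma adjusted p = 0.0078 and 0.026).

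Proc encodes protein C, the vitamin K-dependent anticoagulant whose active form cuts factor V. At 24 h its log2 signals were 13.69, 13.91, 13.98, 13.99 and 14.05 in vehicle, 13.46 to 13.60 at 250 µM and 13.48 to 13.65 at 1000 µM. At 48 h they were 13.60, 13.65, 13.82, 13.83 and 13.84 in vehicle, 13.30 to 13.45 at 250 µM and 13.28 to 13.37 at 1000 µM. Every exposed array lay below every vehicle array of its time. The falls were -0.39 ± 0.06 and -0.34 ± 0.06 at 24 h (250 and 1000 µM, limma adjusted p = 2.5e-06 and 1.9e-05) and -0.39 ± 0.06 and -0.42 ± 0.06 at 48 h (limma adjusted p = 1.2e-06 and 5.7e-07). The Proc signal thus stood at 74.8 to 78.7% of vehicle in the 4 comparisons, and the protein was not measured. With the single vehicle array of low actin ratio the 48 h falls were -0.29 and -0.32 (limma adjusted p = 0.030 and 0.019).

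Plg encodes plasminogen, the precursor of the fibrin-dissolving protease. At 24 h its log2 signals were 14.56, 14.84, 14.89, 14.95 and 14.96 in vehicle, 14.60, 14.64, 14.65, 14.79 and 14.83 at 250 µM, and 14.46, 14.54, 14.59, 14.60 and 14.66 at 1000 µM. Replicate 1 of the vehicle (14.56) lay below all arrays at 250 µM and within the range at 1000 µM, while the 4 other vehicle arrays lay above every exposed array. The difference was -0.14 ± 0.07 at 250 µM (limma adjusted p = 0.17) and -0.27 ± 0.07 at 1000 µM (limma adjusted p = 0.0040). The second of these missed the test when array medians were centred (-0.23, limma adjusted p = 0.10). At 48 h the vehicle arrays read 14.25 to 14.49, those at 250 µM 13.77 to 14.06 and those at 1000 µM 13.73 to 14.01. No exposed array then reached a vehicle array, and the falls were -0.43 ± 0.07 (limma adjusted p = 6.0e-06) and -0.48 ± 0.07 (limma adjusted p = 1.1e-06), to 74.5 and 71.6% of vehicle. With the single vehicle array of low actin ratio they were -0.39 and -0.45 (limma adjusted p = 0.028 and 0.012).

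**Figure D3:**
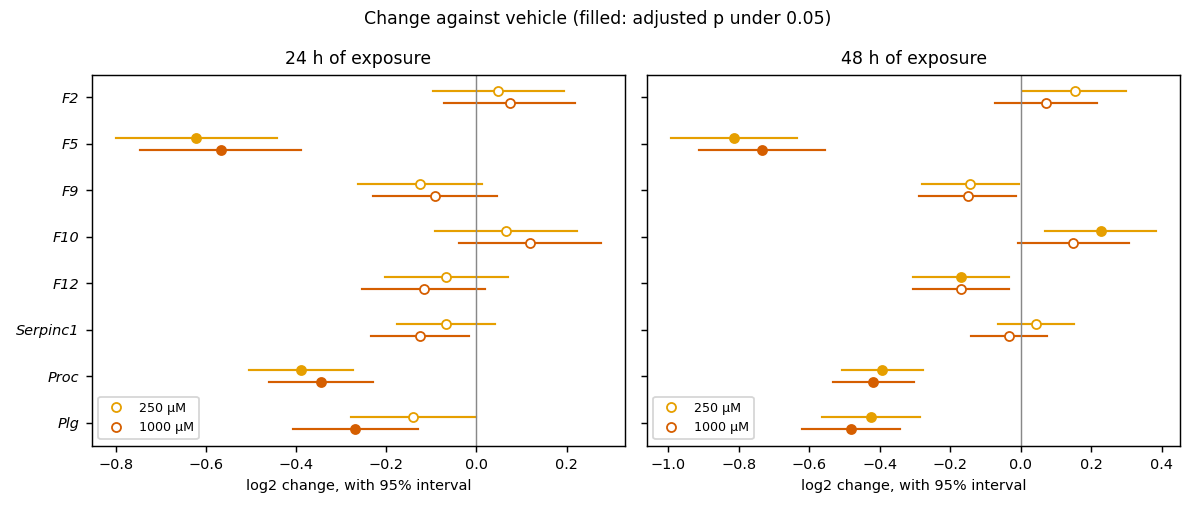
Log2 change against vehicle of the same time (x axis) with its 95% interval from limma for the 8 genes (y axis), at 250 and 1000 µM, after 24 h and 48 h. Filled points passed an adjusted p under 0.05: F5 and Proc in all 4 comparisons, Plg in 3 of them, and F10 and F12 at 250 µM and 48 h.

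Among the proteases of the intrinsic and common pathway, F12 encodes factor XII, which starts the contact system. Its 48 h log2 signals were 13.66, 13.77, 13.77, 13.78 and 13.81 in vehicle, 13.55 to 13.64 at 250 µM and 13.52 to 13.66 at 1000 µM, so both exposed groups lay below vehicle. The difference was -0.17 ± 0.07 at each dose, which passed the test at 250 µM (limma adjusted p = 0.042) and not at 1000 µM (limma adjusted p = 0.055). The call at 250 µM held in 9 of 22 alternatives and was lost with the single vehicle array of low actin ratio (-0.07). With each vehicle array of raised ratio kept alone the difference was -0.22 to -0.18, also without a call. The call was lost as well when vehicle replicate 1, 2, 3 or 5, or 250 µM replicate 1, 3, 4 or 5, was left out (limma adjusted p = 0.055 to 0.084). F9 encodes factor IX, and its 48 h signals of 14.65 to 14.69 in vehicle stood above all those at 250 µM (14.41 to 14.59) and 1000 µM (14.39 to 14.57). Its differences, -0.14 ± 0.07 and -0.15 ± 0.07, did not pass the test (limma adjusted p = 0.089 and 0.092). They were called in 3 and 4 of 22 alternatives, among them quantile normalization (-0.27 and -0.20, limma adjusted p = 4.7e-05 and 0.0018). In all, the exposed and vehicle groups were apart for 6 of 8 genes at 250 µM and 48 h (25.3% of all genes) and for 5 of 8 at 1000 µM and 48 h (18.3%), and for 2 of 8 at each dose at 24 h.

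F10 encodes factor X, where both arms of the cascade meet. At 48 h its log2 signals were 14.15, 14.15, 14.24, 14.24 and 14.42 in vehicle, 14.44, 14.44, 14.48, 14.48 and 14.49 at 250 µM, and 14.30 to 14.45 at 1000 µM. The 5 arrays at 250 µM lay above all vehicle arrays and spread less than them. The rise was 0.23 ± 0.08 at 250 µM (limma adjusted p = 0.018), while the difference at 1000 µM was 0.15 ± 0.08 (limma adjusted p = 0.15). The rise was not called after centring (0.23, limma adjusted p = 0.095) or after quantile normalization (0.09, limma adjusted p = 0.30). Nor was it called without vehicle replicate 2 or 3 (0.20 in both, limma adjusted p = 0.051). It was also not called with the single vehicle array of low actin ratio, at a like size (0.22). With each vehicle array of raised ratio kept alone it was not called either (0.05 to 0.32). F2 encodes prothrombin, the precursor of thrombin. Its log2 signals at 48 h were 15.61 to 15.80 in vehicle and 15.77 to 15.92 at 250 µM. The difference of 0.15 ± 0.07 did not pass the test (limma adjusted p = 0.087), but was called in 3 of 22 alternatives. With the actin ratio as a covariate, for example, it was 0.24 (limma adjusted p = 0.041). Serpinc1 encodes antithrombin, the main inhibitor of thrombin and factor X. Its differences of -0.13 to 0.04 passed in no comparison with vehicle in the main fit. The difference at 1000 µM and 24 h was called in 3 of 22 alternatives.

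Without the first vehicle array at 24 h the 24 h picture widened. At 250 µM 5 genes then fell (F5, F9, F12, Proc and Plg), and at 1000 µM 6 fell (Serpinc1 as well), where 18.6 and 17.7% of all genes changed. F9 was -0.21 ± 0.05 and -0.18 ± 0.05 (limma adjusted p = 0.0037 and 0.016), and F12 -0.16 ± 0.05 and -0.21 ± 0.05 (limma adjusted p = 0.016 and 0.0016). Plg at 250 µM was -0.21 ± 0.06 (limma adjusted p = 0.015), and Serpinc1 at 1000 µM -0.17 ± 0.05 (limma adjusted p = 0.011). F2 and F10 passed at neither dose, and their differences went from above 0 with that array (0.05 to 0.12) to below 0 without it (-0.06 to -0.01 for F10, -0.05 and -0.03 for F2). F5 and Proc passed the test in the 4 comparisons under every one of the 22 alternatives run for each.

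The higher dose gave no further change that could be detected. Between 1000 and 250 µM 0 of 8 genes changed at either time (limma), where 0.019% of all genes changed at 24 h and 0.0665% at 48 h. An unadjusted p under 0.05 was found for 0 of 8, a share not counted over all genes. The differences ran from -0.13 to 0.05 at 24 h and from -0.08 to 0.08 at 48 h. The 95% intervals of all 8 lay within -0.27 to 0.23 at 24 h and within -0.24 to 0.26 at 48 h, and differences of up to that size are not excluded. The groups of the 2 doses overlapped for all 8 genes at both times (0.988 and 2.89% of all genes were apart). For F5 the interval was -0.12 to 0.23 at 24 h and -0.10 to 0.26 at 48 h. Plg had the largest difference at 24 h, -0.13 ± 0.07, and 3 of 5 arrays at 1000 µM read below all those at 250 µM.

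Time in culture moved a partly different set of genes. From 24 to 48 h in vehicle, Serpinc1, Plg and Proc fell, and F5 and the 4 protease genes F2, F9, F10 and F12 did not pass the test, with 28.1% of all genes changed (16.4% rose and 11.7% fell). The same 3 fell at 250 µM (13.4% of all changed, 6.86% rose and 6.52% fell) and at 1000 µM (18% changed, 9.91% rose and 8.11% fell). Serpinc1 went from 14.75, 14.94, 14.98, 15.04 and 15.05 in vehicle at 24 h to 14.48, 14.53, 14.53, 14.54 and 14.74 at 48 h. Those groups did not overlap, which held for 2 of 8 genes in vehicle and for 10.6% of all genes (4 of 8 and 13.4% at 250 µM, 3 of 8 and 14.1% at 1000 µM), and the difference was -0.39 ± 0.05 (limma adjusted p = 2.4e-06). It was -0.28 ± 0.05 at 250 µM and -0.29 ± 0.05 at 1000 µM (limma adjusted p = 3.1e-04 and 1.5e-04). After centring, which moved the share of rises among all calls from 58.4 to 78.3% in vehicle and from 51.3 to 69% at 250 µM, Plg alone was called at 250 µM, and Serpinc1 and Plg in vehicle and at 1000 µM.

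Plg fell with time in all 3 conditions, at -0.48 ± 0.07 in vehicle, -0.77 ± 0.07 at 250 µM and -0.70 ± 0.07 at 1000 µM (limma adjusted p = 3.9e-06, 3.0e-10 and 3.4e-09). Its lowest group mean, 13.87 ± 0.12 (SD, n = 5) at 1000 µM and 48 h, stood below its highest, 14.84 ± 0.16 in vehicle at 24 h. Proc fell, at -0.17 ± 0.06, -0.18 ± 0.06 and -0.25 ± 0.06 (limma adjusted p = 0.020, 0.032 and 0.0019). The first of these was lost without vehicle replicate 2, 4 or 5 of 24 h or 5 of 48 h (limma adjusted p = 0.051 to 0.082), and the second without any of 6 single arrays (limma adjusted p = 0.056 to 0.089). With the single vehicle array of low actin ratio Proc over time in vehicle was -0.27 (limma adjusted p = 0.18). F5 went the other way in vehicle, 0.23 ± 0.09, just short of the threshold (limma adjusted p = 0.051). It was called without vehicle replicate 4 of 48 h (0.29, limma adjusted p = 0.011) or replicate 5 of 24 h (0.27, limma adjusted p = 0.027). With the single vehicle array of low actin ratio at 48 h it was -0.01 (limma adjusted p = 0.99), and 0.04 in the fit that takes the actin ratio as a covariate (limma adjusted p = 0.89). F10 in vehicle was 0.00 with all arrays and -0.13 without the first 24 h array (limma adjusted p = 0.041).

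**Figure D4:**
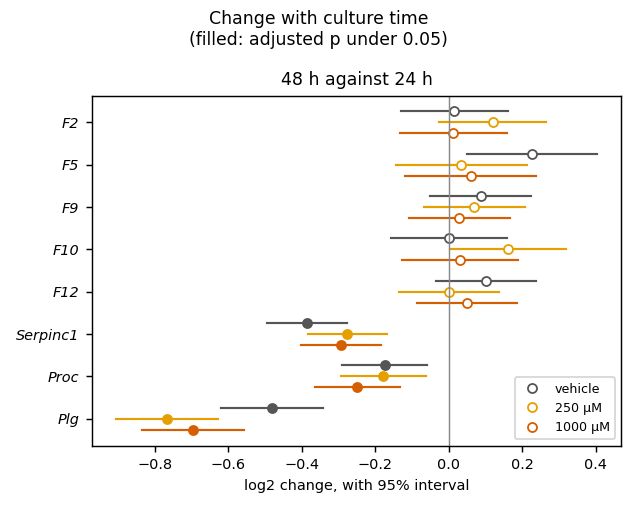
Log2 change from 24 to 48 h (x axis) with its 95% interval from limma for the 8 genes (y axis), in vehicle and at 250 and 1000 µM. Filled points passed an adjusted p under 0.05: Serpinc1, Proc and Plg in all 3 conditions.

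Whether the exposure acted differently at the 2 times was tested as the difference between the 48 h and the 24 h effect. It passed for 0 of 8 genes at either dose (limma), against 8.36% of all genes at 250 µM and 0.969% at 1000 µM. An unadjusted p under 0.05 was found for 1 of 8 at each dose, a share not counted over all genes. That gene was Plg, -0.29 ± 0.10 at 250 µM (limma adjusted p = 0.060) and -0.21 ± 0.10 at 1000 µM (limma adjusted p = 0.38). Its 250 µM value was called without vehicle replicate 3 or 4 of 24 h, vehicle replicate 4 of 48 h or 250 µM replicate 3 of 48 h (limma adjusted p = 0.039 to 0.049). Without the first vehicle array at 24 h, F10 was called instead (0.29 ± 0.06, limma adjusted p = 0.0034, 11.9% of all genes). For F5 the difference was -0.19 ± 0.12 and -0.17 ± 0.12, which did not pass.

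Ordered by group mean, F5, F9, F12 and Proc had both vehicle groups above the 4 exposed groups. For F9 and F12, however, every step between neighbours in that order, the step from vehicle to exposed included, was smaller than the larger of their SDs. For F5 this held among the exposed groups, and its steps between the vehicle groups and from vehicle to exposed were larger. Proc had the exposed groups of 24 h above those of 48 h, and within each time the doses differed by less than that spread. Serpinc1 and Plg had the 3 groups of 24 h above the 3 of 48 h, and within each time only the steps of Plg from 250 to 1000 µM at 24 h and from vehicle to 250 µM at 48 h were larger than the spread. F2 and F10 shared 1 order, with 250 µM at 48 h highest, then 1000 µM at 48 h, 1000 µM at 24 h, 250 µM at 24 h and the vehicle groups, and below the top group neighbours differed by less than the spread.

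Across the 30 arrays, which share platform and scaling, F2 and F10 moved most alike (Pearson r = 0.89), followed by Serpinc1 and Plg (r = 0.85). After removal of the group means F2 and F10 still gave r = 0.87, and 0.66 without the first vehicle array at 24 h. Serpinc1 and Plg then gave 0.52, and 0.30 without that array. For F10 and F12 the same values were 0.72 and 0.0021, so that likeness rests on 1 array. The genes most like F5 were St6gal1 (r = 0.96), a sialyltransferase, Rhou (0.95) and Lpin1 (0.94). Those most like Plg were Spp2 (0.96), Pglyrp1 (0.96) and Vtn (0.95), which encodes vitronectin. For Proc they were Jun (0.92), Fetub (0.92) and Synrg (0.91), and for Serpinc1 they were Serpina3m (0.94), Ces1c (0.93) and Fgl1 (0.93). F10 was most like Shmt2 (0.91), F2 and Acsm1 (0.88), and F2 like F10, Acsm1 (0.83) and Ndufa13 (0.82). F9 was followed by Cyp1a1 (0.85), Ctnnb1 and Krt18, and F12 by Cyp1a1 (0.82), Epb41l5 and Ctnnb1. The genes nearest to the mean of the 8 were Gnmt (0.85), Slc37a4, Cfi, Tsc22d1 and Epb41l5, with r of 0.82 or more.

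Of the other genes of clotting and fibrin breakdown, more fell than rose in each comparison with vehicle. Of 38 listed genes 32 had a probe set and 27 were tested. At 24 h 0 rose and 10 fell at 250 µM (8.31% of all genes rose and 11% fell), and 0 rose and 11 fell at 1000 µM (8.28 and 11.2% of all). At 48 h 4 rose and 11 fell at 250 µM (15.2 and 26% of all), and 3 rose and 13 fell at 1000 µM (11.5 and 18.3% of all). Their median log2 difference was -0.13, -0.16, -0.18 and -0.09 in these comparisons, beside -0.03, -0.03, -0.07 and -0.04 for all genes. Without the first vehicle array 14 and 15 fell at 24 h (250 and 1000 µM), where 18.6 and 17.7% of all genes changed in either direction. With the single vehicle array of low actin ratio the 48 h counts of rises and falls were smaller at both doses.

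Fibrinogen, the protein that thrombin turns into fibrin, is made of the products of Fga, Fgb and Fgg. Fga and Fgb fell in all 4 comparisons, Fga by -0.22 ± 0.07 and -0.28 ± 0.07 at 24 h and -0.40 ± 0.07 and -0.45 ± 0.07 at 48 h. Fgb fell, at -0.29 ± 0.07, -0.33 ± 0.07, -0.51 ± 0.07 and -0.55 ± 0.07 (limma adjusted p = 0.0037 or less). Fgg passed the test at 1000 µM and 48 h (-0.22 ± 0.07, limma adjusted p = 0.018), a call lost without vehicle replicate 1 or 1000 µM replicate 2. With the single vehicle array of low actin ratio the call was also lost, though the fall was larger (-0.30). The Fga call at 250 µM and 24 h was lost without vehicle replicate 5. Kng2l1, a kininogen gene listed here with the contact system, fell most of the tested genes in these lists at 24 h, -1.09 ± 0.07 and -0.97 ± 0.07. At 48 h it was at -1.32 ± 0.07 and -1.07 ± 0.07 (limma adjusted p = 1.1e-12 or less in all 4). Whether its product takes part in that system was not tested. Its relatives Kng1 and Kng2 were not tested, and its probe set could also read their RNA. F8, the cofactor of factor IX, and Klkb1, plasma prekallikrein, passed in none of the 4.

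Of the starters of clotting, F3 (tissue factor) passed in none of the 4 comparisons. Tfpi, the inhibitor of tissue factor with factor VII, rose at 48 h by 0.46 ± 0.15 and 0.50 ± 0.15 (limma adjusted p = 0.013 and 0.010), and neither call held with the single vehicle array of low actin ratio. Among 6 tested genes listed as anticoagulants 3 and 4 fell at 24 h and 3 and 4 at 48 h (250 and 1000 µM), Gas6 among them each time. Over all genes 11, 11.2, 26 and 18.3% fell in the 4 comparisons, and 15.2 and 11.5% rose at 48 h. Among the 6 there was 1 rise at each dose at 48 h. That rise was Serpina5, the protein C inhibitor (1.02 ± 0.30 and 0.83 ± 0.30, limma adjusted p = 0.0063 and 0.033), whose vehicle mean lay under the limit on low signals, whose calls were lost with the single vehicle array of low actin ratio, and which at 1000 µM is named after its value was seen. Gas6, a vitamin K-dependent relative of protein S, fell, at -0.75 ± 0.09 to -0.94 ± 0.09. Procr, the receptor that holds protein C on cells, fell, at -0.42 ± 0.12 and -0.45 ± 0.12 at 24 h and -1.04 ± 0.12 and -1.08 ± 0.12 at 48 h. Serpina10, the inhibitor that works with protein Z, fell, at -0.19 ± 0.06 at both doses at 24 h and -0.36 ± 0.06 and -0.33 ± 0.06 at 48 h, and each 24 h call was lost without any of 5 or 6 single arrays. Pros1, the protein S cofactor of protein C, differed by -0.01 to 0.09 and did not pass.

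Of 7 tested genes of plasminogen activation and its inhibitors, 3 fell at each dose at 24 h and 4 at each dose at 48 h, and 0 rose. Over all genes 11, 11.2, 26 and 18.3% fell in the 4 comparisons, and 8.28 to 15.2% rose. Serpinf2, the main inhibitor of plasmin, fell, at -0.70 ± 0.08 and -0.68 ± 0.08 at 24 h and -0.57 ± 0.08 and -0.54 ± 0.08 at 48 h. Hrg, a plasma protein that binds plasminogen, fell, at -0.65 ± 0.08, -0.54 ± 0.08, -0.73 ± 0.08 and -0.56 ± 0.08. A2m, a broad protease inhibitor, differed by -0.22 ± 0.09 and -0.24 ± 0.09 at 24 h without passing, and fell, at -1.34 ± 0.09 and -1.02 ± 0.09 at 48 h (limma adjusted p = 1.1e-13 and 1.1e-10). Serping1, the C1 inhibitor, fell, at -0.20 to -0.29, and 3 of its 4 calls were lost without single arrays. Both of its 48 h calls were also lost with the single vehicle array of low actin ratio (-0.08 and -0.10, limma adjusted p = 0.77 and 0.70). The plasminogen activator Plat and the receptor Plaur, which binds another activator, passed in none of the 4 comparisons.

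**Figure D5:**
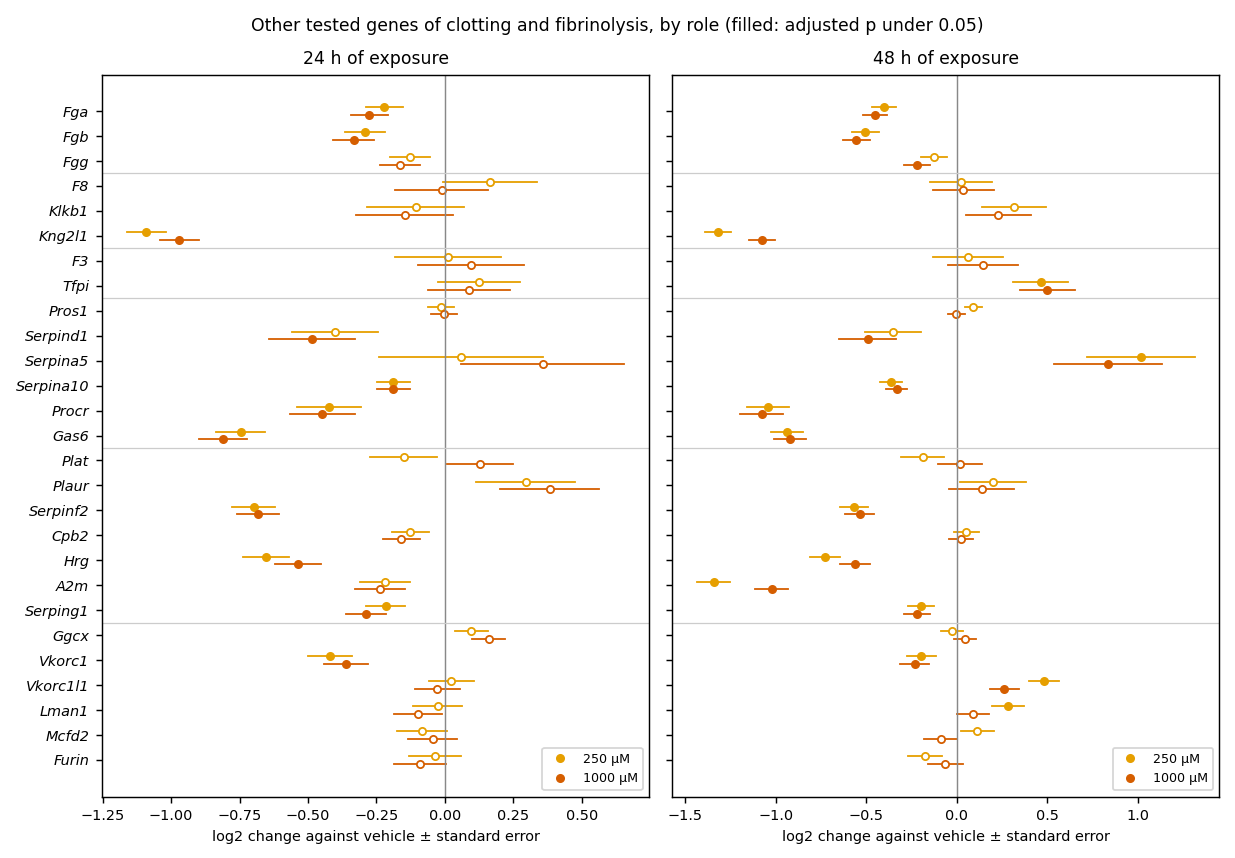
Log2 change against vehicle (x axis) with its standard error for the 27 other tested genes of clotting and fibrinolysis (y axis, grouped by role), at 250 and 1000 µM, after 24 h and 48 h. Filled points passed an adjusted p under 0.05, 10 and 11 of them at 24 h, all falls, and 15 and 16 at 48 h.

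The vitamin K cycle activates prothrombin, protein C and factors IX and X after translation. Of 6 tested genes of this cycle and of secretion 1 fell at each dose and time. At 48 h 2 rose at 250 µM and 1 at 1000 µM. Over all genes 11, 11.2, 26 and 18.3% fell in the 4 comparisons, and 15.2 and 11.5% rose at 48 h. Counts this small beside those shares say little about the list as a whole. Vkorc1, the enzyme that regenerates vitamin K and that warfarin blocks, fell, at -0.42 ± 0.08 and -0.36 ± 0.08 at 24 h and -0.20 ± 0.08 and -0.23 ± 0.08 at 48 h. The 48 h calls were lost without any of 8 (250 µM) or 4 (1000 µM) single arrays. With the single vehicle array of low actin ratio the call at 250 µM was also lost, though the fall was larger (-0.38). Ggcx, the carboxylase of the cycle, passed in none. Vkorc1l1, a relative of Vkorc1, rose at 48 h by 0.48 ± 0.08 and 0.26 ± 0.08, and Lman1, a receptor that carries factor V out of the endoplasmic reticulum, by 0.29 ± 0.09 at 250 µM. These 3 rises were not called with the single vehicle array of low actin ratio, and those of Lman1 and, at 1000 µM, Vkorc1l1 not without vehicle replicate 1.

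Among 8 tested transcription factors known to act on such promoters, Nr1h4, the bile acid receptor FXR, rose by 0.81 ± 0.07, 0.69 ± 0.07, 0.70 ± 0.07 and 0.61 ± 0.07 (limma adjusted p = 5.6e-08 or less). Cebpb rose by 0.25 ± 0.06 and 0.19 ± 0.06 at 24 h and by 0.63 ± 0.06 and 0.51 ± 0.06 at 48 h, with the call at 1000 µM and 24 h lost without the first vehicle array or any of 4 other single arrays. Nfe2l2 fell, at -0.27 ± 0.05, -0.34 ± 0.05, -0.41 ± 0.05 and -0.34 ± 0.05. Cebpa fell at 24 h, at -0.35 ± 0.07 and -0.47 ± 0.07, and did not pass at 48 h (0.09 and 0.14). Onecut1 fell in all 4, at -0.61 ± 0.18, -0.57 ± 0.18, -0.45 ± 0.18 and -0.95 ± 0.18, of which the first 3 were lost without any of 2, 2 and 8 single arrays. With the single vehicle array of low actin ratio the third call was also lost, though the fall was larger (-0.65). Hnf4a, a central regulator of liver genes, fell at 250 µM and 48 h (-0.41 ± 0.10, limma adjusted p = 0.0011), but stood at 0.09 with the single vehicle array of low actin ratio. In all, 2, 2, 2 and 3 of the 8 rose and 4, 3, 3 and 2 fell in the 4 comparisons, against 19.3, 19.5, 41.2 and 29.7% of all genes changed. Which of them act on the 8 genes in these cells was not tested.

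Beside the fall of F5, Proc and Plg, the summed signal of the 10 stellate cell markers was lower in exposed wells, and 1 of them carried that difference. Vim encodes vimentin, a filament protein of mesenchymal cells that other cells can also make in culture, and its probe set gave 45.0 to 79.1% of the sum. At 24 h the sum ranged from 10580 to 15856 in vehicle, from 7206 to 8136 at 250 µM and from 7305 to 8588 at 1000 µM. At 48 h it ranged from 15808 to 16829, 7123 to 8093 and 7696 to 9089 in the same order. Without Vim the sums of the other 9 overlapped between vehicle and exposed wells, from 3174 to 4691, 3149 to 4474 and 3473 to 3975 at 24 h and from 3406 to 4086, 3280 to 4171 and 3239 to 4346 at 48 h. Vim fell in all 4 comparisons, at -1.28 ± 0.09, -1.19 ± 0.09, -1.70 ± 0.09 and -1.41 ± 0.09 (limma adjusted p = 3.5e-12 or less). Of the 5 other markers tested Acta2, smooth muscle actin, fell at each dose at 24 h (-0.46 ± 0.14 in both) and Col1a1, a collagen chain, rose at 250 µM and 48 h (0.78 ± 0.21). The median over the 6 was -0.04, -0.05, -0.08 and -0.09, beside -0.03, -0.03, -0.07 and -0.04 for all genes. Summed hepatocyte markers overlapped between all groups (474109 to 786957 in the 24 h groups and 510794 to 639925 in the 48 h groups). The part of these other cells in the results was not tested.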

How the data were processed

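The authors deposited 1 linear intensity for each probe set and array. MAS5, a method that brings arrays to a common mean, is named in the submitters' processing notes, with its version and settings not given in the sources used here. Log2(signal + 1) was taken, the 57 control probe sets and the lowest 40% by mean signal (under 234) were left out, and the probe set of highest mean stood for each gene (10528 genes, names from the platform table updated through RefSeq). Of 31099 probe sets 20832 were paired with 1 gene, 436 with several, and 9780 of the rest other than controls with none here. The precision is limited by the number of arrays. All 30 arrays entered a single limma fit (version 3.58.1, R version 4.3.3; 24 residual degrees of freedom, mean-variance trend), with 11 contrasts and Benjamini-Hochberg adjustment over all genes. A gene rose or fell where the adjusted p was under 0.05. Fold changes are on the log2(signal + 1) scale. The fit was tested on simulated data. The 9 genes, the pathway and marker lists, the motifs and the rule for named genes (at most 4 called genes per list and comparison) were chosen with earlier results of these data known. Alternatives were other pseudocounts, filters, scalings, variance models, covariates and arrays left out, with array weights and sets of running numbers as a block added after seeing the data.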

Additional observations from a re-analysis of the deposited data

Results flagged for a closer look

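For 8 of 48 pairs of gene and group, 1 array stood apart from its group by a gap that exceeded 0.71 of the group's range. Chance marks about 1 in 20 independent groups. The 48 pairs share 30 arrays and are not independent, so that rate cannot be set against the 8. The first vehicle array at 24 h gave 3 of them, as the lowest array for F2 (0.807), F10 (0.926) and F12 (0.924). At 1000 µM and 48 h replicate 2 was lowest for F2 (0.767) and F9 (0.883), and replicate 3 was lowest for F5 (0.773). In vehicle at 48 h replicate 4 was lowest for F12 (0.742), and replicate 1 was highest for Serpinc1 (0.754).

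A difference between the effect at 48 h and that at 24 h passed the test for 5 related genes at 250 µM and 2 at 1000 µM (limma adjusted p under 0.05), where 8.36 and 0.969% of all genes passed. For A2m, the protease inhibitor, it was -1.12 at 250 µM and -0.78 at 1000 µM. For Procr, the receptor of protein C, it was -0.62 at 250 µM. For Cebpa it was 0.44 at 250 µM and 0.61 at 1000 µM, and for Cebpb 0.38 at 250 µM. For Vkorc1l1 it was 0.46 at 250 µM. With the single vehicle array of low actin ratio at 48 h, A2m at 250 µM (-0.93) and Cebpa at 1000 µM (0.75) were still called and the other 5 were not, and 0.551 and 0.361% of all genes passed. After array medians were centred only A2m, at both doses, was still called. Vehicle arrays of both times enter each of these differences.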

How the results depend on the processing

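The labels name no shared culture or batch, but the running numbers in the titles form 5 sets of 6 arrays, each with 1 array of every group. Of 75 pairs of arrays from the same set, 19 had deviations from the group means that correlated over 0.1 across genes. The median correlation was 0.04 within sets, against -0.01 between sets. Of 30 arrays 15 correlated best with their own set out of 5, so the sets may share more than a number. Whether the arrays of a set shared a culture or batch was not tested. With the set as a replicate block, added after the results were known, no call of the 8 genes was lost, and F12 at 1000 µM and 48 h and F5 over time in vehicle gained one (limma adjusted p = 0.049 in both). Under the 12 alternatives other than leaving out single arrays, and among the 88 values of a gene in a comparison, 1010 values kept their side of the threshold, 16 lost a call, 30 gained one and 0 reversed. When single arrays were left out, 1005 kept it, 20 lost a call, 14 gained one and 1 reversed (F10 over time in vehicle, -0.125 without the first 24 h vehicle array, against 0.0385 without the fifth, its highest value of this kind). The larger shifts in counts of changed genes follow, with some smaller ones first. At 250 µM and 48 h the count of 5 became 7 with only the groups compared fitted and with array weights. Centring array medians gave 2 at 1000 µM and 24 h and 2 for time in vehicle. Array weights gave 4 (250 µM, 24 h), 5 (1000 µM, 24 h), 6 (1000 µM, 48 h) and 2 (difference between times at 250 µM). Quantile normalization gave 5 at 1000 µM at both times and 1 for the difference between times at 250 µM. At 1000 µM and 48 h, fitting only the groups compared, or the running number in the titles as a covariate, gave 5. Centring array medians gave 3 at 250 µM and 48 h and 1 for time at 250 µM. Leaving out the 4 vehicle arrays of raised actin ratio gave 3 at 250 µM and 48 h. Without single arrays the counts ranged from 2 to 5 and 3 to 6 at 24 h (250 and 1000 µM), 3 to 5 and 3 to 4 at 48 h, 0 to 0 between doses at both times, 2 to 4, 2 to 3 and 3 to 3 for time in vehicle, 250 and 1000 µM, and 0 to 1 and 0 to 0 for the differences between times. Of 96 calls of related genes 50 held under every alternative, and 2 reversed with the single vehicle array of low actin ratio at 48 h (Hnf4a at 250 µM to 0.0927, Vkorc1l1 at 1000 µM to -0.0221). The cause of these shifts was not tested. Fits with 1 vehicle array left assume that it varies like the other groups.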
